A study of Mus musculus with 8 samples.

Results

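The T cell receptor complex and its immediate signalling and checkpoint genes were followed here in mouse acute myeloid leukaemia (AML) cells that carry or lack Ezh1 and Ezh2. The genes were 10 rows picked by symbol from a deposited table of 31574 rows: the CD3 chains Cd3d, Cd3e and Cd3g, the zeta chain Cd247, the coreceptors Cd4 and Cd8a, the costimulatory receptor Cd28, the inhibitory receptor Pdcd1 (PD-1), and the kinases Lck and Zap70. Each symbol matched 1 row, and all 10 were tested, as part of 18051 rows that rose above the table's floor in 2 or more libraries. The cells were c-kit+ AML cells from the femur and tibia marrow of C57BL/6 mice, sequenced as bulk RNA in 8 libraries, 2 in each of 4 groups. Ezh1-null tamoxifen cells were Ezh1-/- with Ezh2 Δ/Δ, and Ezh1-null oil cells were Ezh1-/- with Ezh2 flox/flox. Ezh1-present tamoxifen cells were Ezh1+/+ with Ezh2 Δ/Δ, and Ezh1-present oil cells were Ezh1+/+ with Ezh2 flox/flox. Tamoxifen was given intraperitoneally in corn oil at 10 mg/kg/day in 5 doses, the oil groups received corn oil, and cells were taken 7 days after treatment. All 4 groups thus share the floxed Ezh2 allele or its deleted form, the c-kit+ selection and the oil vehicle, and no group received tamoxifen with an intact Ezh2, so tamoxifen and Ezh2 deletion cannot be told apart. The sample labels write Ezh2+/+ for the oil groups where the series text writes flox/flox, and the Cre driver is not named in the sources used here. The titles of all 8 samples carry the word Moz, which the labels do not explain, and which the 4 groups therefore share.

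The T cell receptor has no signalling domain of its own. It is displayed with the CD3 delta, epsilon and gamma chains and the zeta chain, whose tails are phosphorylated by Lck, the kinase that CD4 and CD8 bring to the receptor, and Zap70 then docks on them. CD28 adds the costimulatory signal, and PD-1 recruits phosphatases that dampen both. Normal myeloid cells carry little of this set, whereas NK cells, which lack a rearranged receptor, use the zeta chain, Lck and Zap70, and immature B and T cells share several of its kinases and recombination enzymes. Ezh1 and Ezh2 are the alternative methyltransferases of Polycomb repressive complex 2.

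Each deposited value is the log2 of a normalized read number, with a floor of 1 normalized read, set against the median of that gene across the 8 libraries. A value of 0 is therefore the gene's middle library, and levels of different genes cannot be set against each other. Low values of a library fell mainly on multiples of a fixed step, from 1.49 normalized reads in replicate 1 of Ezh1-present tamoxifen, by this measure the deepest, to 2.48 in Ezh1-null oil replicate 1. Total read numbers are unknown. The labels do not say that the 2 libraries of a group came from separate mice or leukaemias, so each p measures only the spread between these libraries. In bulk cells, fewer cells of a type and less RNA per cell cannot be told apart. Ezh1 RNA, a check of the labels, showed differences of -3.53 (oil) and -3.17 (tamoxifen) between Ezh1-null and Ezh1-present cells, on the log2 scale. Ezh2 RNA differed after tamoxifen by -0.18 in Ezh1-present cells (limma adjusted p = 0.293) and by -0.47 in Ezh1-null cells (limma adjusted p = 0.0554). Between the genotypes, Ezh1-null minus Ezh1-present, it differed by -0.31 in oil (limma adjusted p = 0.0492) and by -0.60 after tamoxifen (limma adjusted p = 0.01998), so the oil comparison of the genotypes also holds a difference in Ezh2 RNA. A sum over the gene does not show which part of it is deleted. For every tested gene of a list of c-kit+ leukaemia and progenitor markers, Kit and Mpo among them, no library was found at the floor. Levels of this list differed between the genotypes: of 12 genes, 7 were called higher and 0 lower in Ezh1-null cells in oil (median 1.13), and 7 higher and 1 lower after tamoxifen (median 0.74). Of all genes, 12.5% were called higher and 12.4% lower in oil, and 6.77% and 5.44% after tamoxifen, with medians of -0.04 and -0.002. In oil the difference was 1.26 ± 0.17 for Kit (limma adjusted p = 0.00848) and 1.97 ± 0.17 for Mpo (limma adjusted p = 0.00352). Its part in the differences of the 10 genes was not tested.

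The 3 CD3 genes lie side by side on chromosome 9, and RefSeq promoter windows (GRCm38.p6, the assembly that mm10 names) are shown for them and for Pdcd1, the members with the widest ranges between groups or with a neighbour among the members. Each window runs from 250 bases before to 50 bases after a start of transcription, and CG dinucleotides, the bases that DNA methylation and CpG-rich Polycomb sites involve, are in capitals.
Cd3d, chr9:44981536-44981835, plus strand: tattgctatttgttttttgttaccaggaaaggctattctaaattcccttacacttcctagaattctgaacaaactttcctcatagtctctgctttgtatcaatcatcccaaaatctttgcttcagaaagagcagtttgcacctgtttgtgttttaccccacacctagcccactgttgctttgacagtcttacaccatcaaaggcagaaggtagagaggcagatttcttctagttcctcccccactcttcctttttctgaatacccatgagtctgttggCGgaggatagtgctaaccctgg
Cd3e, chr9:45009562-45009861, minus strand: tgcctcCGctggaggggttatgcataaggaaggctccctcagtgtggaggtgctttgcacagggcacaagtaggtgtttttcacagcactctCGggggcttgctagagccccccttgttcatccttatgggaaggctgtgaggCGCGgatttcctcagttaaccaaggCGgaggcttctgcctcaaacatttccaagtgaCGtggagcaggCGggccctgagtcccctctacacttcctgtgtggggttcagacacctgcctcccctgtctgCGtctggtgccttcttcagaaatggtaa
Cd3g, chr9:44980382-44980681, minus strand: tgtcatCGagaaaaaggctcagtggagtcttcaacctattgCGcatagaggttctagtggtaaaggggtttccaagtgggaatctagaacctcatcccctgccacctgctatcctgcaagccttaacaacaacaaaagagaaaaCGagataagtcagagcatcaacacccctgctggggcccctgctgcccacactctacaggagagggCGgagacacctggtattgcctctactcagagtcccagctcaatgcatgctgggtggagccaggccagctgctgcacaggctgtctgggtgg
Pdcd1, chr1:94052504-94052803, minus strand: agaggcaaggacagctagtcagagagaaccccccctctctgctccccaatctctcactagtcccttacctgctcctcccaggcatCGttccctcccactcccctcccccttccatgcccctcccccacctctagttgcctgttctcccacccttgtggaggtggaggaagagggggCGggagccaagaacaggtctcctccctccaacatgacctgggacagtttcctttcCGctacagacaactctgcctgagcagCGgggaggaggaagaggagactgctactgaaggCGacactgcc
These windows held 1 CG in Cd3d, 8 in Cd3e, 4 in Cd3g and 5 in Pdcd1, where the median of 32851 RefSeq promoter windows was 7. Windows were matched for 8 of the 10 members, 11 windows in all, with 1 to 9 CG each. The letters TGTGGT, searched on both strands as a core that Runx factors are known to bind, occurred in 2 of the 11 windows, 1 of Lck and 1 of Zap70, and in 16.8% of all windows. These are descriptions of letters and say nothing of binding in these cells.

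Cd3d encodes the CD3 delta chain (gene 12500, mm10 chromosome 9, 44981786 to 44987052). Its values were 1.32 and 0.70 in Ezh1-null tamoxifen, -0.58 and -0.41 in Ezh1-null oil, 0.41 and 1.19 in Ezh1-present tamoxifen, and -2.60 and -3.97 in Ezh1-present oil libraries. The Ezh1-present oil libraries were the lowest, and the 2 tamoxifen groups overlapped. After tamoxifen it was higher by 4.08 ± 0.53 on the log2 scale in Ezh1-present cells (SE, n = 2 each, limma adjusted p = 0.0507) and by 1.51 ± 0.53 in Ezh1-null cells (limma adjusted p = 0.230), neither past the threshold of 0.05. Between the oil groups it was higher in Ezh1-null cells by 2.79 ± 0.53 (limma adjusted p = 0.01997), a call that ended at 0.0559 without Ezh1-present oil replicate 2 and at 0.0711 and 0.0904 without Ezh1-null oil replicate 1 or 2. In Ezh1-null tamoxifen against Ezh1-present oil cells the difference was 4.29 ± 0.53 (limma adjusted p = 0.00774).

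Cd3e encodes the CD3 epsilon chain (gene 12501, 44998743 to 45009590), and its level could be recovered because 3 libraries lay at the floor. It had 8.50 and 10.9 normalized reads in Ezh1-null tamoxifen, 2.48 and the floor in Ezh1-null oil, 15.7 and 41.7 in Ezh1-present tamoxifen, and the floor in both Ezh1-present oil libraries. All 4 tamoxifen libraries lay above the 4 oil libraries, and the 2.48 was a single step. Against a limit of 3 steps per floor library its geometric mean was 4.83-fold higher in Ezh1-present tamoxifen than in Ezh1-present oil cells, without allowance for spread within the tamoxifen group. The fitted change was 4.68 ± 0.61 (limma adjusted p = 0.0509), which did not pass. It depends on the floor, and the 2 Ezh1-present oil libraries there cannot vary, so the error may be understated. In Ezh1-null cells the fitted tamoxifen change was 2.61 ± 0.61 (limma adjusted p = 0.102). Ezh1-null tamoxifen cells passed against Ezh1-present oil cells, with a fitted difference of 3.27 ± 0.61 (limma adjusted p = 0.0206). Their geometric mean was 1.82-fold above the limit of 3 steps, again without allowance for spread. This call ended without any 1 of the 4 libraries of these groups, where the difference ran from 3.09 to 3.44. It also ended with 4 further reads added, where the difference was 1.45 (limma adjusted p = 0.0527). With those reads added the tamoxifen change in Ezh1-present cells was 2.58 and in Ezh1-null cells 1.26.

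Cd3g encodes the CD3 gamma chain (gene 12502, 44969572 to 44980431) and is separated from Cd3d by 1354 bases. Its values were 0.14 and 0.40 in Ezh1-null tamoxifen, -0.64 and -0.75 in Ezh1-null oil, 0.69 and 2.26 in Ezh1-present tamoxifen, and -0.70 and -0.14 in Ezh1-present oil libraries. Tamoxifen libraries were above oil libraries in both genotypes, and Ezh1-present tamoxifen replicate 2 stood highest. The changes were 1.90 ± 0.53 in Ezh1-present (limma adjusted p = 0.146) and 0.96 ± 0.53 in Ezh1-null cells (limma adjusted p = 0.429), and no comparison called it. Ube4a, a ubiquitin ligase gene beside this cluster, changed by -0.02 ± 0.09 and 0.03 ± 0.09 in these tamoxifen comparisons.

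Cd247, the zeta chain (gene 12503, chromosome 1, 165788681 to 165877276), did not follow the CD3 genes. Its values were 0.07 and -0.01 in Ezh1-null tamoxifen, 0.04 and -0.12 in Ezh1-null oil, -0.07 and 0.23 in Ezh1-present tamoxifen, and 0.01 and -0.01 in Ezh1-present oil libraries. All groups overlapped, over a range of 0.34 on the log2 scale. The tamoxifen change in Ezh1-present cells was 0.08 ± 0.13, with a 95% interval of -0.25 to 0.41. The row shares 12123 bases with Pou2f1, a broadly expressed transcription factor gene that no comparison called, and the strand setting of the counting is not given in the sources used here, so reads of the 2 genes may not be separable.

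**Figure D1:**
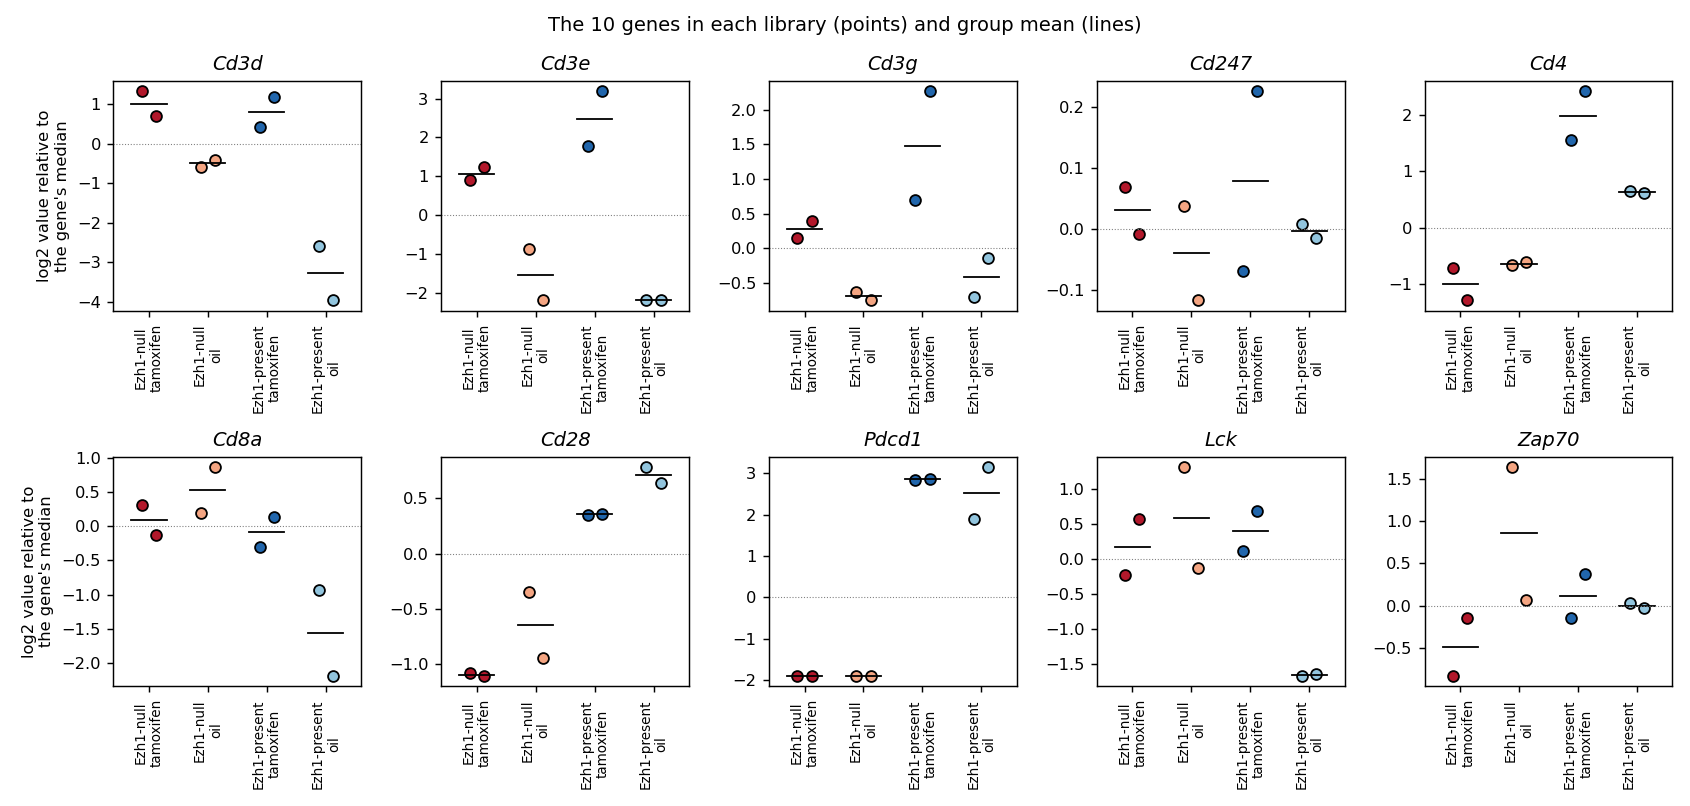
Log2 value relative to the gene's median (y axis, a scale per panel) of each of the 10 genes in each of the 8 libraries (points), with the mean of each group of 2 (lines). Cd3d, Cd8a and Lck are lowest in the Ezh1-present oil libraries, Pdcd1, Cd28 and Cd4 are lower in the 4 Ezh1-null than in the 4 Ezh1-present libraries, and Cd247 spans 0.34.

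Rows for whole receptor loci were also in the table and are described as seen. Tcrd, the delta chain locus, was higher in Ezh1-null oil than in Ezh1-present oil cells by 2.46 ± 0.60 (limma adjusted p = 0.0397) and in Ezh1-null tamoxifen than in Ezh1-present oil cells by 3.38 ± 0.60 (limma adjusted p = 0.0186). Its tamoxifen change in Ezh1-present cells was 3.93 ± 0.60 (limma adjusted p = 0.0649). The beta locus row Tcrb changed there by 2.51 ± 0.55 (limma adjusted p = 0.109), and the gamma locus row Tcrg by 2.48 ± 0.65 (limma adjusted p = 0.131). The alpha locus row Tcra changed by 0.13 ± 0.25 (limma adjusted p = 0.810). The Tcrd row lies wholly inside the Tcra row on chromosome 14, so reads of the delta and alpha loci may not be separable. The Trac constant gene, which mature alpha-beta T cells transcribe, and Trdc were at the floor in 8 of 8 libraries. Both lie inside or across locus rows, so their reads may have been assigned to those rows or dropped, and these zeros are not read as absence. These rows were chosen after their values were seen.

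Cd4 (gene 12504, chromosome 6, 124864693 to 124888209) encodes the coreceptor for MHC class II and is also present on some mouse dendritic and progenitor cells. Its values were -0.71 and -1.28 in Ezh1-null tamoxifen, -0.66 and -0.61 in Ezh1-null oil, 1.55 and 2.42 in Ezh1-present tamoxifen, and 0.65 and 0.61 in Ezh1-present oil libraries. All 4 Ezh1-null libraries lay below all 4 Ezh1-present libraries. Between the genotypes it differed by -1.26 ± 0.33 in oil (limma adjusted p = 0.0475) and by -2.98 ± 0.33 after tamoxifen (limma adjusted p = 0.0129). The tamoxifen change was 1.35 ± 0.33 in Ezh1-present (limma adjusted p = 0.124) and -0.36 ± 0.33 in Ezh1-null cells (limma adjusted p = 0.634), and the difference between these, -1.72 ± 0.47, did not pass (limma adjusted p = 0.214). The oil call was made in 7 of 15 alternative settings and ended without any 1 library of the oil groups, at limma adjusted p from 0.143 to 0.160, or of Ezh1-null tamoxifen (0.0612). The call after tamoxifen was made in 13 of 15 and ended without Ezh1-null tamoxifen replicate 2 (limma adjusted p = 0.0582).

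Cd8a (gene 12525, chromosome 6, 71373427 to 71379171) encodes the CD8 alpha chain, which pairs as a homodimer on some dendritic and NK-like cells or with CD8 beta on T cells. Its values were 0.32 and -0.14 in Ezh1-null tamoxifen, 0.19 and 0.86 in Ezh1-null oil, -0.30 and 0.14 in Ezh1-present tamoxifen, and -0.94 and -2.19 in Ezh1-present oil libraries. Only the Ezh1-present oil libraries lay apart, below the other 6. It was higher in Ezh1-null oil than in Ezh1-present oil cells by 2.09 ± 0.48 (limma adjusted p = 0.0341), and its tamoxifen change in Ezh1-present cells was 1.48 ± 0.48 (limma adjusted p = 0.185). The oil call was made in 6 of 15 alternative settings and ended without any 1 library other than Ezh1-present oil replicate 1; without replicate 2 of that group the difference was 1.47 (limma adjusted p = 0.0897). Cd8b1, the beta chain, named after its values were seen, was above the floor in 3 libraries, 1 Ezh1-null tamoxifen and 2 Ezh1-present tamoxifen.

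Cd28 (gene 12487, chromosome 1, 60746388 to 60773359), the receptor for CD80 and CD86, had values of -1.08 and -1.11 in Ezh1-null tamoxifen, -0.35 and -0.94 in Ezh1-null oil, 0.35 and 0.35 in Ezh1-present tamoxifen, and 0.78 and 0.64 in Ezh1-present oil libraries. The genotypes did not overlap, and within each the tamoxifen libraries were below the oil libraries. The genotypes differed by -1.36 ± 0.20 in oil (limma adjusted p = 0.0107) and by -1.45 ± 0.20 after tamoxifen (limma adjusted p = 0.019999). The oil call ended without Ezh1-present oil replicate 1 (0.0621), and the tamoxifen call without any 1 of the 4 tamoxifen libraries, at limma adjusted p from 0.0725 to 0.0883. The tamoxifen changes were -0.36 ± 0.20 in Ezh1-present (limma adjusted p = 0.385) and -0.45 ± 0.20 in Ezh1-null cells (limma adjusted p = 0.346). Its ligand gene Cd86 was lower in Ezh1-null cells by -1.89 ± 0.23 in oil (limma adjusted p = 0.00637) and -2.08 ± 0.23 after tamoxifen (limma adjusted p = 0.0125). The other ligand gene, Cd80, ran the other way, by 1.03 ± 0.23 in oil (limma adjusted p = 0.0312) and 0.99 ± 0.23 after tamoxifen (limma adjusted p = 0.0530, not called).

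Pdcd1 (gene 18566, chromosome 1, 94038305 to 94052553) encodes PD-1. It was at the floor in all 4 Ezh1-null libraries, and had 26.9 and 27.3 normalized reads in Ezh1-present tamoxifen and 14.0 and 33.2 in Ezh1-present oil libraries. The Ezh1-present groups overlapped, and lay above all Ezh1-null libraries. Its geometric mean in Ezh1-present oil cells was 3.02-fold above the limit of 3 steps per library of Ezh1-null oil cells. In Ezh1-present tamoxifen cells it was 4.19-fold above that limit of Ezh1-null tamoxifen cells. These folds make no allowance for spread within the higher group. The fitted changes were -4.43 ± 0.39 (limma adjusted p = 0.00362) and -4.76 ± 0.39 (limma adjusted p = 0.00767). The 4 Ezh1-null libraries at the floor cannot vary, and the groups share 1 estimate of spread, so these errors are smaller than reads would give. Both calls, and that of Ezh1-null tamoxifen against Ezh1-present oil cells, were made in 15 of 15 alternative settings, with differences of -2.37 in oil and -2.64 after tamoxifen when 4 further reads were added. The row passed the filters of 2 and of 4 libraries only through the 4 Ezh1-present libraries, where it was high. Passing them is therefore no support for the difference. The tamoxifen change in Ezh1-present cells was 0.33 ± 0.39 (limma adjusted p = 0.677), with a 95% interval of -0.67 to 1.33. This interval may be too narrow, since it uses the same estimate of spread. The genes of both PD-1 ligands are named after their values were seen. Cd274 differed by at most 0.16 on the log2 scale in the 5 comparisons between groups, and Pdcd1lg2 by 1.58 ± 0.87 with tamoxifen in Ezh1-present cells, 1.08 ± 0.87 between the genotypes in oil and -1.10 ± 0.87 after tamoxifen (limma adjusted p = 0.376, 0.410 and 0.434).

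**Figure D2:**
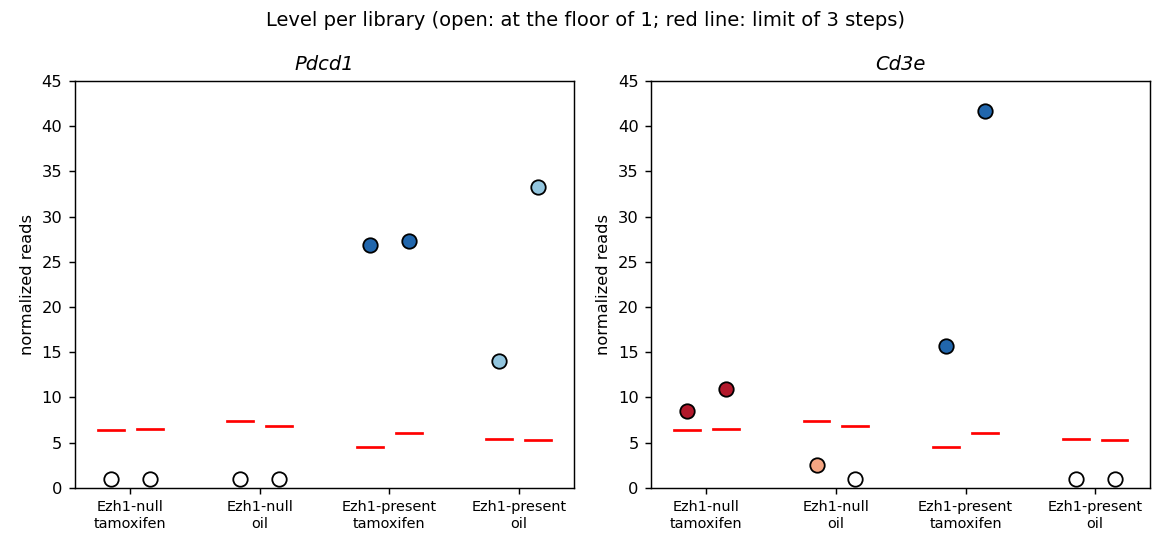
Normalized reads (y axis, linear) of Pdcd1 and Cd3e in each library of the 4 groups; open points are at the floor of 1 and red lines mark 3 steps of that library. Pdcd1 is at the floor in the 4 Ezh1-null libraries and between 14.0 and 33.2 in the 4 Ezh1-present libraries, and Cd3e is above its line only in the 4 tamoxifen libraries.

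Pdcd1 was read beside a list of inhibitory checkpoint genes, of which 10 of 12 listed symbols were in the table, Pdcd1 included. Entpd1 in this list encodes an enzyme and not a receptor. In oil 5 were lower in Ezh1-null cells and 1 higher, and after tamoxifen 5 were lower and 0 higher, with list medians of -1.43 and -1.94. Of all genes, 12.4% were lower and 12.5% higher in oil and 5.44% lower and 6.77% higher after tamoxifen, with medians of -0.04 and -0.002. Lag3, a receptor that binds MHC class II, was lower by -1.78 ± 0.31 in oil (limma adjusted p = 0.0161) and -2.17 ± 0.31 after tamoxifen (limma adjusted p = 0.0207), and Btla, whose ligand is Tnfrsf14, by -1.87 ± 0.22 and -1.97 ± 0.22 (limma adjusted p = 0.00648 and 0.0140). Cd96, a receptor of T and NK cells, ran the other way in oil, at 5.36 ± 1.02 (limma adjusted p = 0.0199). Tigit and Cd244 were also lower in oil, and Havcr2 and Entpd1 also lower after tamoxifen; Tigit, Cd244 and Havcr2 are named after their values were seen. With tamoxifen in Ezh1-present cells all 10 had a positive change, median 1.44, and 0 passed (limma), with 4 at an unadjusted p under 0.05. Over all genes the median was 0.01 there, 0.903% were called and 20.6% were at an unadjusted p under 0.05. Several of these genes are also known in NK, dendritic or myeloid cells.

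**Figure D3:**
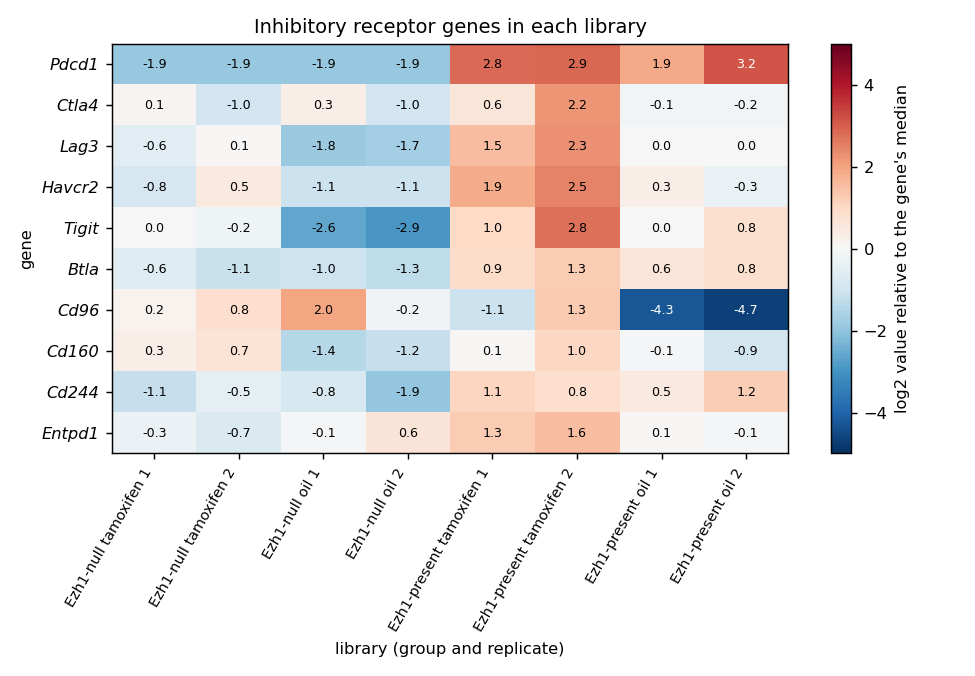
Log2 value relative to each gene's median (colour and printed number) of 10 genes of the inhibitory checkpoint list (rows) in the 8 libraries (columns, 2 per group). Entpd1 among them encodes an enzyme. Pdcd1 is at -1.9 in the 4 Ezh1-null libraries, and Cd96 is lowest in the 2 Ezh1-present oil libraries.

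Lck (gene 16818, chromosome 4, 129548344 to 129573641), the kinase that starts receptor signalling, had values of -0.22 and 0.57 in Ezh1-null tamoxifen, 1.31 and -0.12 in Ezh1-null oil, 0.12 and 0.69 in Ezh1-present tamoxifen, and -1.67 and -1.63 in Ezh1-present oil libraries. The Ezh1-present oil libraries were below the other 6, which overlapped. It was higher in Ezh1-null oil than in Ezh1-present oil cells by 2.24 ± 0.54 (limma adjusted p = 0.0380), a call made in 5 of 15 alternative settings; without Ezh1-null oil replicate 1 the difference was 1.53 (limma adjusted p = 0.0867), and the call also ended without any 1 other library but Ezh1-null oil replicate 2. Its tamoxifen change was 2.05 ± 0.54 in Ezh1-present (limma adjusted p = 0.134) and -0.42 ± 0.54 in Ezh1-null cells. Zap70 (gene 22637, chromosome 1, 36761861 to 36782816), the kinase that docks on the zeta chain, had -0.84 and -0.15 in Ezh1-null tamoxifen, 1.64 and 0.07 in Ezh1-null oil, -0.15 and 0.37 in Ezh1-present tamoxifen, and 0.03 and -0.03 in Ezh1-present oil libraries. Ezh1-null oil replicate 1 was the highest library for both kinases, and no comparison called Zap70.

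The rest of the receptor pathway was taken from a list of 28 signalling genes, Lck and Zap70 included, all tested. In Ezh1-null against Ezh1-present cells in oil 2 were higher and 5 lower, with a median of -0.01 where all genes had -0.04; these 7 of 28 are a share like the 24.9% called over all genes, so the count does not set the list apart. Nfatc2, a transcription factor that calcium signalling activates, was lower there by -1.67 ± 0.12 (limma adjusted p = 0.00280), and was higher by 1.51 ± 0.12 in Ezh1-null tamoxifen than in Ezh1-null oil cells (limma adjusted p = 0.00852). Grap2, an adaptor that links Lat to Lcp2, was lower in Ezh1-null cells by -1.35 ± 0.19 in oil (limma adjusted p = 0.00882) and -1.88 ± 0.19 after tamoxifen (limma adjusted p = 0.0110). Csk, the kinase that holds Lck inactive, was higher in oil by 0.56 ± 0.08 (limma adjusted p = 0.0112). With tamoxifen in Ezh1-present cells 0 of the 28 passed (limma), 8 were at an unadjusted p under 0.05, and 19 were positive, with a median of 0.17. Over all genes 0.903% were called and 20.6% were at an unadjusted p under 0.05 there, with a median of 0.01.

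Taking the comparisons in turn, tamoxifen in Ezh1-present cells asked what Ezh2 deletion does while Ezh1 remains, and limma called 0 of the 10 genes, where it called 0.903% of all genes tested, 0.637% higher and 0.266% lower. At an unadjusted p under 0.05 there were 6, where 20.6% of all genes were, and the sign was positive in 9, with a median change of 1.42 against 0.01 over all genes. The groups did not overlap in 6 genes that were higher and 1 that was lower, where 28.5% and 25.3% of all genes were so. Without Ezh1-present tamoxifen replicate 2, the highest library for 4 of the 10 genes, the median was 1.01 and the changes of Cd3d and Cd3e were 3.69 and 3.97. Without replicate 1 of that group, Cd3e (5.38, limma adjusted p = 0.0404) and Cd3g (2.68, limma adjusted p = 0.0395) passed.

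In Ezh1-null cells, tamoxifen asked the same with Ezh1 absent, and limma called 0 of the 10, where it called 3.4% of all genes, 3.1% higher and 0.299% lower (560 and 54 genes, or 342 and 115 after quantile normalization). There were 2 at an unadjusted p under 0.05, Cd3e and Cd3d, where 17.9% of all genes were, and 4 of the 10 were positive, with a median of -0.18. That median was 0.07 without Ezh1-null oil replicate 1, -0.05 without replicate 2 of that group, and -0.01 and -0.04 without Ezh1-null tamoxifen replicate 1 or 2. Groups did not overlap for 3 higher and 3 lower genes, where 24.5% and 24.8% of all genes were so. The interaction, the tamoxifen change in Ezh1-null minus that in Ezh1-present cells, was negative in all 10 and called in 0 (limma), where 0.476% of all genes were called, 0.321% positive and 0.155% negative. Its median was -1.59, against -0.003 over all genes. In other lists it was positive in 2 of 20 NK, 1 of 13 B cell, 0 of 12 erythroid and 10 of 28 signalling genes. It reached -2.58 ± 0.75 in Cd3d (limma adjusted p = 0.234) and -2.47 ± 0.77 in Lck (limma adjusted p = 0.256), and 4 were at an unadjusted p under 0.05, where 14.9% of all genes were.

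Loss of Ezh1 was asked in oil and in tamoxifen cells. In oil 3 of the 10 were higher (Cd3d, Cd8a, Lck) and 3 lower (Pdcd1, Cd28, Cd4), where 24.9% of all genes were called, 12.5% higher and 12.4% lower. Groups there did not overlap for 4 higher and 3 lower genes, where 31% and 34.7% of all genes were so. After tamoxifen 0 were higher and 3 lower, again Pdcd1, Cd28 and Cd4, where 12.2% of all genes were called, 6.77% higher and 5.44% lower. Groups did not overlap for 0 higher and 5 lower genes, where 30.7% and 31.8% of all genes were so. Loss of both, Ezh1-null tamoxifen against Ezh1-present oil cells, called Cd3d and Cd3e higher and Pdcd1, Cd28 and Cd4 lower, where 23.4% of all genes were called, 13.2% higher and 10.2% lower. Cd28 differed there by -1.80 ± 0.20 (limma adjusted p = 0.00643), called in 15 of 15 alternative settings, and Cd4 by -1.62 ± 0.33 (limma adjusted p = 0.0260), called in 8 of 15 and lost without any 1 library of Ezh1-null tamoxifen, Ezh1-null oil or Ezh1-present oil, at 0.0516 to 0.106. Groups did not overlap for 5 higher and 4 lower genes, where 33.8% and 32.9% of all genes were so. These comparisons share libraries, so their counts are not independent. Each Ezh1 genotype may also stem from its own leukaemia, which cannot be told apart from Ezh1 loss here.

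**Figure D4:**
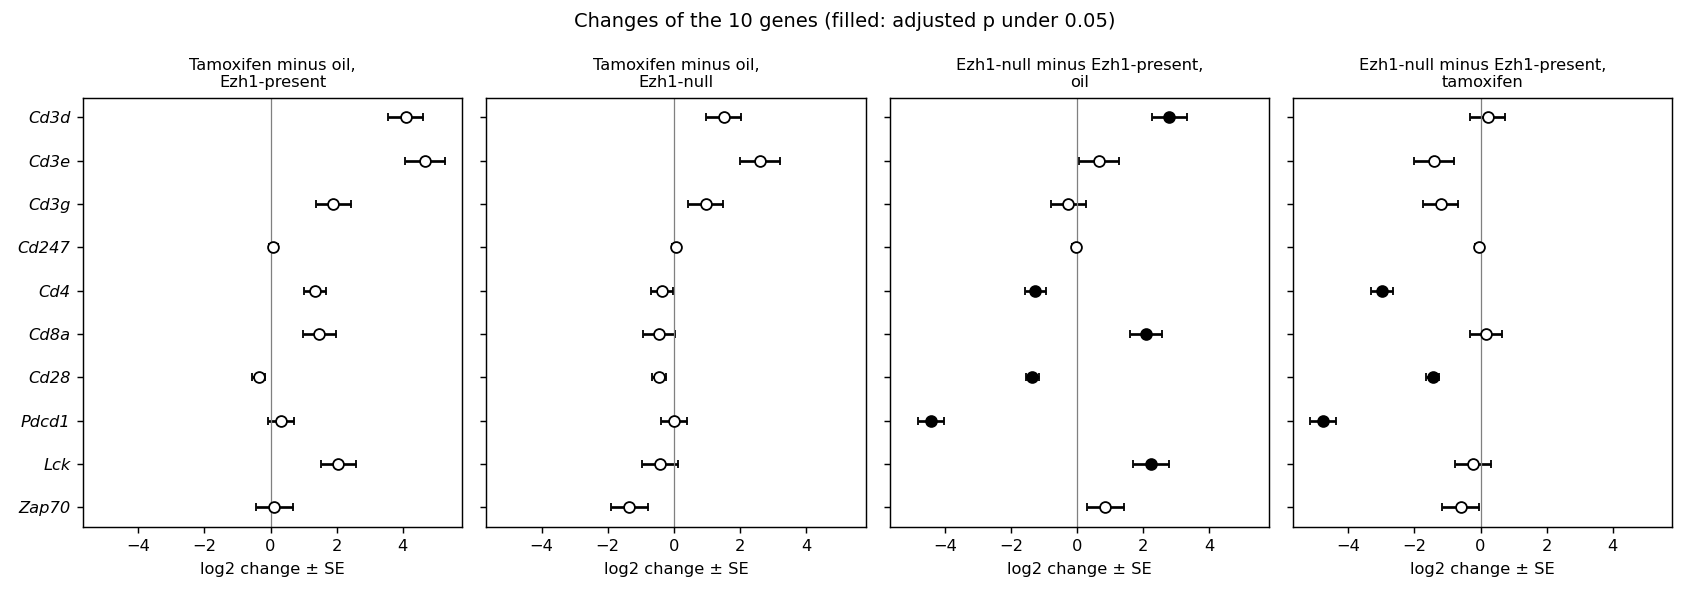
Log2 change ± SE from limma (x axis, n = 2 libraries per group) of the 10 genes (rows) in 4 comparisons, filled where the adjusted p is under 0.05. Pdcd1, Cd28 and Cd4 are lower in Ezh1-null cells in both genotype panels, and the tamoxifen changes of Cd3d and Cd3e in Ezh1-present cells are 4.08 and 4.68 without passing.

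Marker RNA of other cell types also differed between these groups. Of 20 NK cell markers, all tested, 20 had a positive change with tamoxifen in Ezh1-present cells (median 3.09), and Klrd1 at 5.09 ± 0.47 (limma adjusted p = 0.0276) and Nkg7 at 4.79 ± 0.57 (limma adjusted p = 0.0430), a receptor and a granule protein, were called, where 0.637% of all genes were higher. The list's mean ran from 0.22 to 0.55 in Ezh1-null tamoxifen, -1.24 to -0.81 in Ezh1-null oil, 0.81 to 2.14 in Ezh1-present tamoxifen, and -1.41 to -1.39 in Ezh1-present oil libraries; Klra9 was at the floor in both Ezh1-present oil libraries, and Gzma and Gzmb in 1 of them. Of 13 B cell markers 9 were higher in Ezh1-null oil than in Ezh1-present oil cells (median 4.38), where 12.5% of all genes were, with Pax5 and Rag1 at the floor in both Ezh1-present oil libraries. Of 13 other T cell markers 6 were positive in that comparison, with a median of -0.11, and 4 were called higher and 0 lower, where 12.5% and 12.4% of all genes were called. Dntt, the enzyme that adds bases at receptor joints in immature B and T cells, was higher by 8.63 ± 0.34 (limma adjusted p = 0.00167), and the recombinase gene Rag1 by 262-fold against the floor limit of 3 steps (limma adjusted p = 0.00239). The limma fit of Rag1 may understate the spread, since its 2 Ezh1-present oil libraries lay at the floor and cannot vary. The partner gene Rag2 was higher by 4.38 ± 0.59 (limma adjusted p = 0.00821). The B cell list also holds Rag1 and Rag2, so the called counts of these lists share genes. With tamoxifen in Ezh1-present cells 12 of 12 erythroid markers were positive (median 3.58), as were 10 of 10 mature neutrophil markers (median 2.23) and 9 of 10 megakaryocyte and platelet markers (median 1.91). In these lists limma called 0, where it called 0.903% of all genes. An unadjusted p under 0.05 was found for 8, 7 and 6 of their genes, where 20.6% of all genes had it. The erythroid mean was -0.35 and 2.49 in the 2 Ezh1-present tamoxifen libraries. In Ezh1-null oil against Ezh1-present oil cells 10 of 10 neutrophil markers were positive (median 3.65) and 6 were called higher, where 12.5% of all genes were. Their part in the changes of the 10 genes was not tested.

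**Figure D5:**
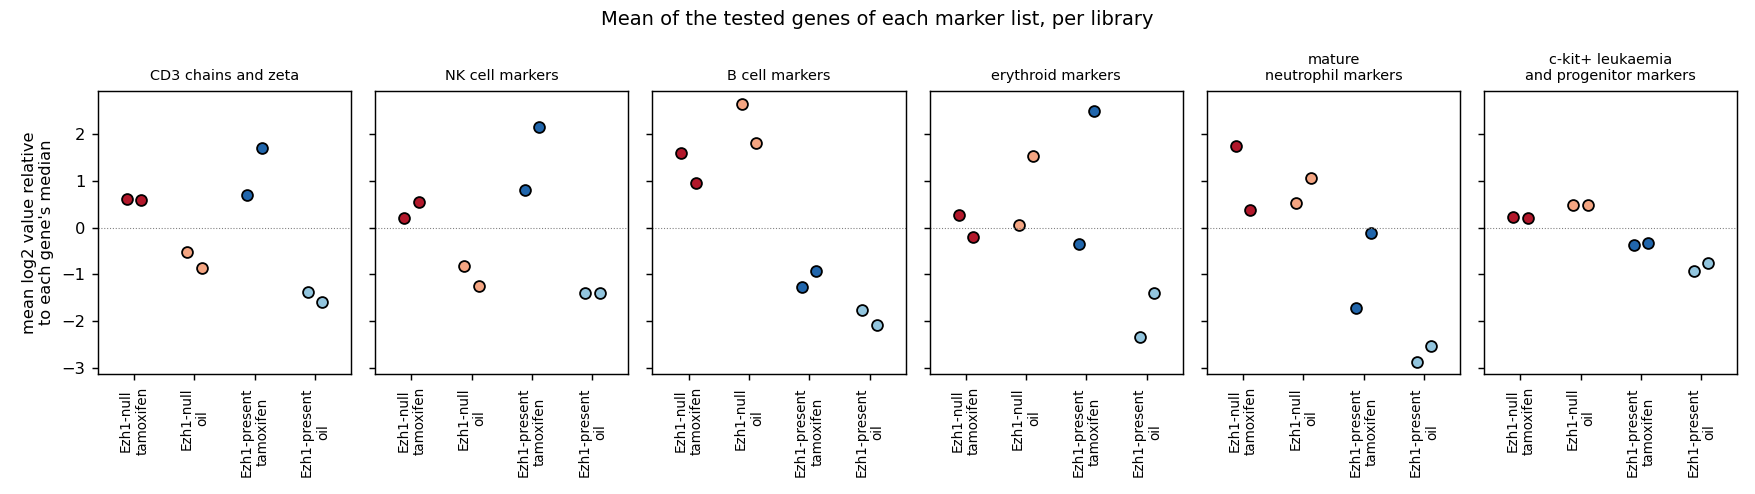
Mean log2 value relative to each gene's median (y axis) over the tested genes of 6 marker lists in each library (points, 2 per group). CD3 and NK markers are higher in both tamoxifen groups than in their oil groups, B cell markers are higher in the 4 Ezh1-null libraries, and erythroid markers are spread widest within Ezh1-present tamoxifen.

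The mean of the 10 genes ran at -0.20 and -0.17 in Ezh1-null tamoxifen, -0.18 and -0.61 in Ezh1-null oil, 0.72 and 1.37 in Ezh1-present tamoxifen, and -0.47 and -0.58 in Ezh1-present oil libraries. Over the 8 libraries and 16985 candidate genes, those most like it by Pearson r were Klrb1c (0.981) and Klra4 (0.966), both NK cell receptors, with Serpinb6a (0.972), C1qtnf6 (0.968) and Myct1 (0.965). The points share library and depth, and this is a description.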

How the data were processed

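Per the file headers, the authors' deposited tables give normalized values on a log2 scale, which proved to be centred on each gene's median with a floor of 1 normalized read, with fold changes as a ratio and as a signed fold score that were not used here. The headers also name a percentile filter on raw data, 20 to 100. The build is mm10, per the labels; aligner and counter: not given in the sources used here. limma 3.58.1 in R 4.3.3 was fitted to 18051 rows (2 or more libraries above the floor; 4 residual and 1.24 prior degrees of freedom), with 1 coefficient per group, no block, and Benjamini-Hochberg adjustment over all rows; adjusted p under 0.05 was called. With 2 against 2 libraries the smallest exact permutation p is 0.333, so none was run. On simulated data for tamoxifen in Ezh1-present cells with 18051 genes, 63% of changes of 2 and 79% of changes of 4 (log2) were recovered, with 10 false calls. A floor was recognised where 2 or more libraries shared the lowest value of a gene, so 1 library alone at the floor went unseen. The step is the commonest value above the floor, values between whole steps also occur, and limits of 3 steps cover counting error only. Fold limits divide the geometric mean of the higher group by that of the 3-step limits of the floor libraries. They make no allowance for spread within the higher group. Tables were handled with pandas 2.3.3 and plots made with matplotlib 3.10.9. Alternatives were a replicate block, quantile normalization, a variance trend, no filter, a filter of 4 libraries, 4 further reads added, the compared groups alone, and each library left out. Named genes were the 10 members, Ezh1 and Ezh2, up to 3 called genes per list and comparison, and the 5 genes most like the members' mean, except where the text says otherwise. The members and lists were chosen with earlier results of these data known.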

Additional observations from a re-analysis of the deposited data

Results flagged for a closer look

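Cd4 is listed because its tamoxifen libraries lay below the oil libraries in Ezh1-null cells and above them in Ezh1-present cells. Neither change passed the test, at -0.36 ± 0.33 in Ezh1-null cells (limma adjusted p = 0.634; -0.07 without Ezh1-null tamoxifen replicate 2) and 1.35 ± 0.33 in Ezh1-present cells (limma adjusted p = 0.124). The difference between the changes, Ezh1-null minus Ezh1-present, was -1.72 ± 0.47 on the log2 scale (limma, unadjusted p = 0.0134, adjusted p = 0.214), so it did not pass the test across all genes.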

How the results depend on the processing

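The 10 genes were refitted under 15 alternatives, 7 settings and 8 with a library left out. Over single genes, 807 refits kept direction and call, 52 lost a call, 10 gained one and 21 changed sign, none of these with a call. For tamoxifen in Ezh1-present cells 2 genes were called, not 0, with quantile normalization and with the variance trend (Cd3d and Cd3e), and 1 with 4 further reads (Cd3d). In Ezh1-null cells 1 was called with quantile normalization (Cd28). For Ezh1 loss in oil 2 were called with the compared groups alone, and after tamoxifen 1. Leaving out a library gave 0 to 2 calls for tamoxifen in Ezh1-present cells, 2 to 4 for Ezh1 loss in oil, 1 to 3 after tamoxifen, 3 to 5 for both losses, and 0 to 0 in the other comparisons; where it leaves a group with 1 library, that library is assumed to vary like the other groups. With the replicate block, Ezh1 loss in oil called 3 and not 6 and both losses 4 and not 5, and no other count changed. The differences of replicate 1 minus replicate 2 correlated over genes between groups at -0.0624 to 0.0785. No shared replicate difference was thus seen, and the labels do not say what the number stands for. Of all genes, tamoxifen in Ezh1-present cells called 163, with the block 17 higher and 6 lower, and with the compared groups alone 0 (3152 at an unadjusted p under 0.05). Sign changes came without 1 library, except that Pdcd1 with tamoxifen in Ezh1-present cells was -0.43 after quantile normalization. Without 1 library, Cd3d ran from -0.18 to 0.60 for Ezh1 loss after tamoxifen. Cd3g ran from -0.55 to 0.0037 for Ezh1 loss in oil. Cd247 ran from -0.065 to 0.23 for tamoxifen in Ezh1-present cells, -0.0065 to 0.15 for tamoxifen in Ezh1-null cells, -0.11 to 0.041 for Ezh1 loss in oil, -0.19 to 0.099 for Ezh1 loss after tamoxifen, -0.0045 to 0.073 for both losses, -0.16 to 0.14 for the interaction. Cd8a ran from -0.052 to 0.40 for Ezh1 loss after tamoxifen. Cd28 ran from -0.38 to 0.21 for the interaction. Pdcd1 ran from -0.30 to 0.95 for tamoxifen in Ezh1-present cells, -0.95 to 0.30 for the interaction. Lck ran from -1.14 to 0.30 for tamoxifen in Ezh1-null cells, -0.63 to 0.17 for Ezh1 loss after tamoxifen. Zap70 ran from -0.15 to 0.37 for tamoxifen in Ezh1-present cells. The cause was not tested. Depth limits Cd3e and Pdcd1, whose floor libraries allow up to 3 steps. Levels of the other members could not be recovered, so limits of depth on them are unknown.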

Other observations

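Ligands and transcription factors of the same pathway were also measured. Tnfsf4, the OX40 ligand, was higher in Ezh1-null tamoxifen than in Ezh1-null oil cells by 3.84-fold against the limit of 3 steps, since both Ezh1-null oil libraries lay at the floor. Its fitted log2 change was 4.78 ± 0.34 (limma adjusted p = 0.00701), which depends on that floor. Cd80 was higher in Ezh1-null tamoxifen than in Ezh1-present oil cells by 1.53 ± 0.23 (limma adjusted p = 0.0121). Of 13 T cell transcription factors 3 were called higher and 2 lower in Ezh1-null oil against Ezh1-present oil cells, with a median of 0.47. Over all genes 12.5% were called higher and 12.4% lower there, with a median of -0.04. Ets1 and Lef1, transcription factors of early lymphoid cells, were higher in Ezh1-null oil than in Ezh1-present oil cells by 3.99 ± 0.50 and 2.13 ± 0.40 (limma adjusted p = 0.00708 and 0.0198), and Tcf7 was higher in Ezh1-null tamoxifen than in Ezh1-present oil cells by 2.56 ± 0.37 (limma adjusted p = 0.0110). Ikzf1, which encodes Ikaros, was lower in Ezh1-null cells by -0.42 ± 0.08 in oil, -0.40 ± 0.08 after tamoxifen and -0.50 ± 0.08 between Ezh1-null tamoxifen and Ezh1-present oil cells (limma adjusted p = 0.0242, 0.0443 and 0.0158). Among 12 costimulatory receptors tested in oil, 2 were called higher and 3 lower, Cd28 included, where 12.5% and 12.4% of all genes were called. Cd5 was lower in Ezh1-null cells by -2.30 ± 0.38, and Slamf6 and Cd27 were higher by 1.83 ± 0.28 and 1.38 ± 0.28 (limma adjusted p = 0.0142, 0.0112 and 0.0244).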
